A study of Homo sapiens with 6 samples.

Results

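The genes described here encode the proteasome, its activators, its inhibitor and its assembly factors. They were chosen as the protein-coding genes whose symbol is PSM, a letter from A to G and a number, and all of them were found among the gene identifiers of the deposited tables, giving 48 genes of 61552 identifiers. By role they were 7 genes of the alpha ring and 7 of the beta ring of the core, 5 genes of inducible or tissue-restricted core subunits, 9 of the base and 8 of the lid of the regulatory particle, 7 assembly factors, and 5 activators and inhibitors.

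The cells were MDA-MB-231, a human line of triple-negative breast cancer. The vehicle control group received DMSO and the treated group 10 μM VNLG-152R, a compound under study for the loss of the kinases MNK1/2 through ubiquitin and the proteasome, both for 24 h and with 3 libraries each. Both groups are the same unmodified line, and the sources do not say whether the 3 libraries of a group came from independent experiments, so the p-values rest on a spread that may be technical. The vehicle control libraries held 60122936 to 68583224 counts in genes and the VNLG-152R libraries 69923839 to 82151816. Levels are given as CPM, counts relative to the TMM-scaled library size, and group values as mean ± SD (n = 3). Of the markers of the line, VIM, CD44, CAV1 and EGFR were present and ESR1 was under the expression filter, as was PTPRC, a leukocyte marker. The endothelial gene PECAM1 was at 23.1 ± 1.61 CPM in vehicle controls. VIM and CAV1 were lower with VNLG-152R, with log2 fold changes of -0.39 and -0.60 (edgeR, adjusted p = 0.0472 and 0.0048), and PGR, EPCAM and CDH1 were at 0.371, 13.4 and 0.585 CPM in vehicle controls.

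The proteasome is the protease that degrades proteins marked with ubiquitin. Its core is a stack of alpha and beta rings, with the cutting sites inside the beta rings, and the regulatory particle on its end unfolds substrates with the ATPases of the base and removes ubiquitin with an enzyme of the lid. Most subunits are made in every cell, and their genes are known to be raised together by the transcription factor NFE2L1, through antioxidant response elements, when proteasome activity falls.

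The core of that element, TGACNNNGC on either strand, was searched in RefSeq promoter windows (GRCh38.p14) that run from 250 bases before to 50 bases after each gene start. A window was at hand for 42 of the 48 genes, and 15 of these (35.7%) held the element, against 4384 of 27305 genes (16.1%). The 27305 genes were not limited to protein-coding genes, as the members are, so the shares are not of like sets. A gene counted once if any of its windows held the element, and the 42 members had 51 windows. It stood in 1 gene of the alpha ring, 1 of the beta ring, 1 inducible core gene, 3 of the base, 2 of the lid, 4 assembly factors and 3 activators. The windows below are printed because they cover the main roles and include genes that the results below turn on. Each is written 5′ to 3′ on the strand of its gene, with the element in capitals.
PSMA4: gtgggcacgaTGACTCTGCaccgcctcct
PSMB3: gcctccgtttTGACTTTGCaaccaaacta
PSMC4: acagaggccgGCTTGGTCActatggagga
PSMC5: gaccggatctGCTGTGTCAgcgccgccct
PSMD3: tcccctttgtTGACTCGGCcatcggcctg
PSMD5: tggctacagtTGACACGGCcctaacggag
PSME1: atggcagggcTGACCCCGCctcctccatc
PSME4: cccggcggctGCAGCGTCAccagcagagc

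In PSMC4, PSMC5 and PSME4 the capitals are the reverse complement of the element. The windows lie at chr15:78540650-78540678 (PSMA4, plus strand), chr17:38752627-38752655 (PSMB3, plus strand), chr19:39971182-39971210 (PSMC4, plus strand) and chr17:63827654-63827682 (PSMC5, plus strand). The others lie at chr17:39980760-39980788 (PSMD3, plus strand), chr9:120843038-120843066 (PSMD5, minus strand), chr14:24136098-24136126 (PSME1, plus strand) and chr2:53971009-53971037 (PSME4, minus strand). The element began 126 bases before the start in PSMA4 and 27 bases after it in PSMC4. The CCAAT box, CCAAT on either strand, was in 20 of the 42 genes (47.6%) and in 39.7% of all genes, and the interferon regulatory factor core AANNGAAA was in 13 (31.0%) and in 26.7% of all genes. A match is a description of the letters and not a measured binding site. Among tested genes, the median log2 fold change was -0.07 for the 13 with the antioxidant element and -0.14 for the 24 without it.

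Most of the constitutive subunits were strongly expressed in vehicle controls. Per kilobase of transcript, the highest levels were those of PSMA7, an alpha ring subunit (442 CPM per kb), and PSMD2, the large scaffold of the base (383 CPM per kb). Over the members that averaged 10 CPM or more, the median level was 239 CPM per kb in the beta ring and 108 in the alpha ring. It was 118 in the base, 99.0 in the lid and 21.2 among the assembly factors, which act on the particle while it is built and are not part of it. Among these members, levels ranged from 79.2 (PSMB2) to 304 CPM per kb (PSMB1) in the beta ring. They ranged from 34.4 (PSMD12) to 140 (PSMD8) in the lid and from 16.7 (PSMG1) to 27.2 CPM per kb (PSMD10) among the assembly factors. The limit of 10 CPM leaves out the assembly factor PSMD9, at 1.44 CPM per kb.

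**Figure D1:**
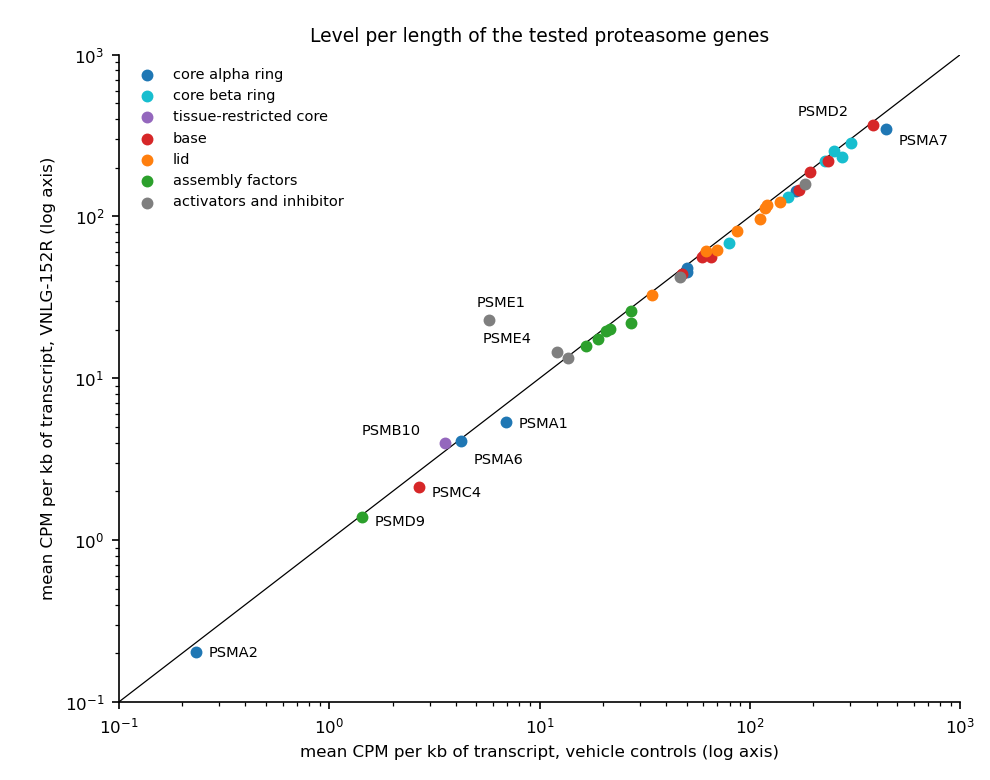
Mean CPM per kb of transcript in vehicle controls (x axis) and with VNLG-152R (y axis) for the 43 tested members, colored by role, on log axes; the line marks equal levels. PSME1 lies above the line at 5.74 and 23.0 CPM per kb, and PSMA1, PSMA2, PSMA6, PSMB10, PSMC4 and PSMD9 lie apart from the other subunits at the low end.

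Of the 48 members, 11 had a mean under 10 CPM. Among them, PSMA8, the testis form of an alpha subunit, and PSMB11, the thymus form of a beta subunit, had 0 counts in every library. A count of 0 allows up to 3 counts, or 0.0363 to 0.0498 CPM in these libraries, by counting error alone. PSMB8 also had 0 counts in every library, and PSMB9 had 1 count in vehicle control replicate 1 and 0 elsewhere. These encode inducible cutting subunits. PSMB3, a constitutive beta subunit, had 0 counts in every vehicle control and 0, 1 and 1 counts with VNLG-152R. The rings hold each of their constitutive subunits in equal number, yet the levels of PSMB3 (0 CPM), PSMA2 (0.346 ± 0.0986 CPM), PSMA6 (4.36 ± 0.352 CPM), PSMC4 (4.26 ± 1.33 CPM) and PSMA1 (10.4 ± 3.44 CPM) in vehicle controls stood far under those of their ring partners.

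Several of these low members share their exons with another gene. In the GENCODE 29 annotation, 5 members had at least 40% of the principal transcript under another gene on the same strand, namely PSMA1 (53.2%), PSMA2 (52.5%), PSMA6 (81.0%), PSMB10 (45.3%) and PSMD9 (43.8%), and all 5 had a mean under 10 CPM. Of the other 43, of which none had more than 0.1%, 6 were under 10 CPM. Pairs ambiguous between genes, 4.81% to 5.16% of the read pairs in each library, are not in the counts. Of the 6, PSMB3, PSMB8, PSMB9 and PSMC4 stood among low neighbors. All 5 coding genes within 50 kb of PSMB3 had a mean under 100 counts, as had all 5 around PSMB8 and around PSMB9, which are each other's neighbors and lie beside TAP1 and TAP2, the antigen peptide transporters, and all 3 around PSMC4. None of the 2 neighbors of PSMA8 or the 4 of PSMB11 was under 100 counts. Of all protein-coding genes in the annotation, 43.6% were under 100 counts. The part of gene overlap and of the thinly counted surroundings in these low values was not tested, so they are given but not read as the level of the transcript. Another 6 members had 10% or more of the principal transcript under an antisense gene, namely PSMC1 (82.1%), PSMD7 (50.4%), PSMC5 (27.2%), PSMG2 (17.3%), PSMD13 (15.9%) and PSME2 (12.0%), and the strand setting of the counting is not given in the sources used here. PSMC1 also has 13 named pseudogenes.

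With VNLG-152R the RNA of most proteasome genes stayed within a narrow band around the vehicle controls. Of the 48 members, 43 passed the expression filter and were tested by quasi-likelihood in edgeR, in a fit over 17084 genes. At an adjusted p under 0.05, 1 member was higher (3.76% of all tested genes were) and 0 were lower (1.43% of all tested genes were). At an unadjusted p under 0.05, 2 members were higher and 10 lower, where 12.8% and 9.76% of all tested genes were. DESeq2 called 1 member higher and 1 lower, against 6.49% and 3.84% of the genes it gave an adjusted p. Of the 37 members that averaged 10 CPM or more, 34 had a 95% interval of the log2 fold change inside -0.5 to 0.5, and the interval included 0 for 25. The median standard error of these 37 was 0.09.

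Within that band, the log2 fold changes lay on the lower side. They were below 0 for 39 of the 43 tested members, while 50.4% of all tested genes were below 0, and the median was -0.09 against -0.002 for all tested genes. The groups did not overlap, with each VNLG-152R library lower, for 12 members (13.4% of all tested genes), and with each VNLG-152R library higher for 1 member (15.1% of all tested genes). The lowest library of a member was a VNLG-152R library in 38 of 43 cases, 22 of them VNLG-152R replicate 1, and the highest was a vehicle control library in 29, 17 of them vehicle control replicate 1. Without VNLG-152R replicate 1, 30 of 43 members were below 0 and the median was -0.06. Since all members were measured in the same 6 libraries, these counts describe the list and carry no p.

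**Figure D2:**
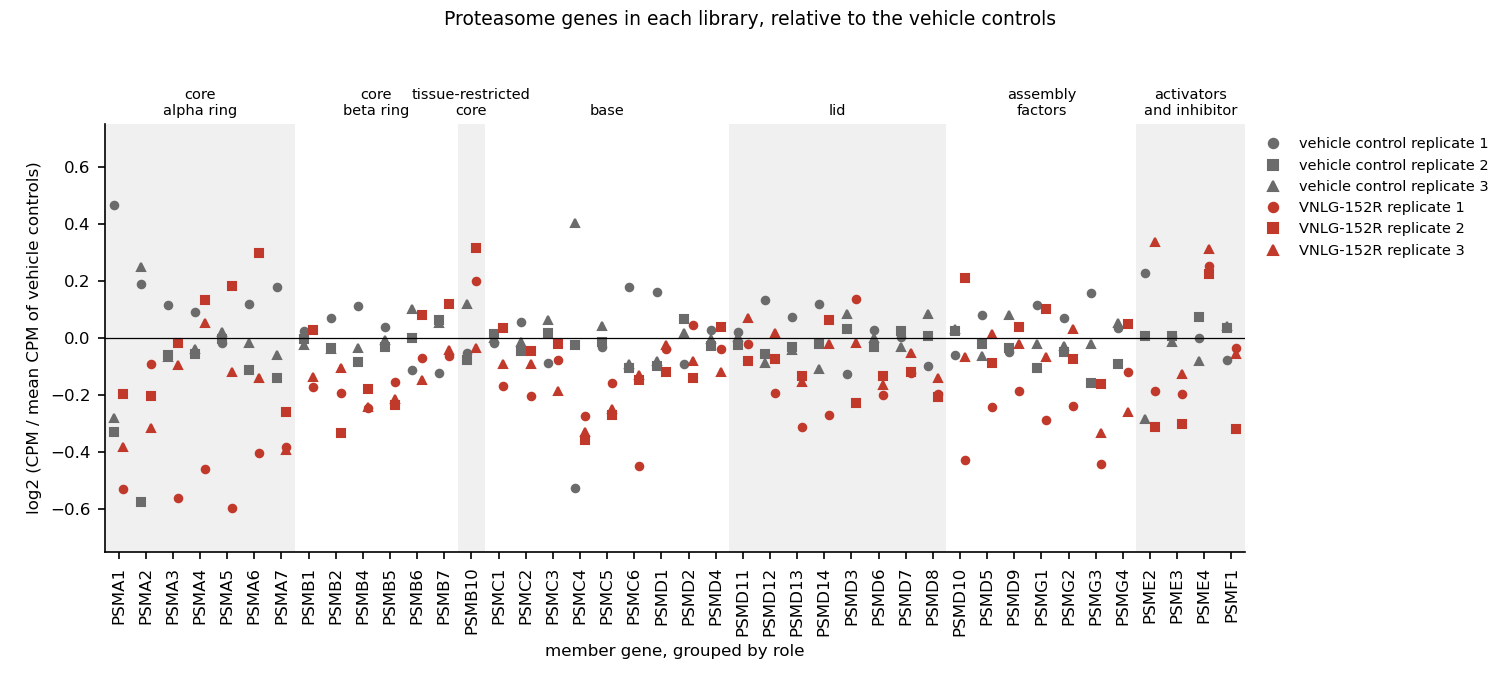
Log2 ratio of each library's CPM to the mean CPM of the vehicle controls (y axis) for 42 tested members grouped by role (x axis). PSME1 is left out because its range is larger. Grey points are vehicle control and red points VNLG-152R libraries, with a marker for each replicate, and red points lie below 0 for most members while VNLG-152R replicate 1 (red circles) is often the lowest.

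Across genes, log2 fold changes were lower for shorter transcripts (Spearman's rho with transcript length 0.20 over 16731 genes, which are not independent). Taken by library, rho of a library's deviation with length was -0.19, -0.0057 and -0.23 in vehicle controls and 0.21, -0.082 and 0.26 with VNLG-152R, so that VNLG-152R replicate 2 lay within the range of the controls. The members' median transcript length was 1579 bases, and that of all tested genes 2499 bases. After each library was corrected for its own trend with length, 34 of 43 members were below 0 and the median of the core changed from -0.20 to -0.15. The part of transcript length in what remained was not tested further.

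The 13 tested constitutive subunits of the core had a median log2 fold change of -0.20, and 12 of them were below 0, with 0 called. Without VNLG-152R replicate 1 the median of the core was -0.053, nearer to 0 than those of the base (-0.097) and the lid (-0.099), so the order of the roles rests on that library. The alpha ring, whose subunits form the gate of the core, had a median of -0.20 over 7 genes, and the beta ring a median of -0.15 over 6. Members at 10 CPM or more, which leaves out PSMA1, PSMA2 and PSMA6, had medians nearer to each other. These were -0.17 for the core (10 genes), -0.17 for the alpha ring (4 genes) and -0.15 for the beta ring (6 genes). PSMA7, on chromosome 20 from 62136735 to 62143440 (GRCh38), had the smallest p of the alpha ring. It was at 498, 400 and 423 CPM in vehicle controls and at 338, 368 and 336 CPM with VNLG-152R. Each VNLG-152R library was below each vehicle control, and vehicle control replicate 1 stood highest. The log2 fold change was -0.34 (standard error 0.10, edgeR adjusted p = 0.0629), which did not pass. DESeq2 (adjusted p = 0.00944) and edgeR with no expression filter (adjusted p = 0.0223) called it lower, and no other setting did. The edgeR adjusted p was 0.193 with replicate number as a block and 0.0886 with the correction for transcript length. The unfiltered fit also gave PSME1 an edgeR adjusted p of 1.03e-60, although its VNLG-152R replicate 1 was below every vehicle control. Calls of that fit are therefore read with caution.

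The other alpha subunits at 10 CPM or more, PSMA3, PSMA4 and PSMA5, had log2 fold changes of -0.20, -0.07 and -0.14, and VNLG-152R replicate 1 was the lowest library of each. PSMA5, for example, was at 185, 186 and 190 CPM in vehicle controls and at 124, 212 and 172 CPM with VNLG-152R. The library of VNLG-152R replicate 1 was the lowest and that of replicate 2 the highest of all 6, so the groups overlapped. The summed CPM of the alpha ring overlapped too, at 1024, 886 and 914 in vehicle controls and 682, 905 and 814 with VNLG-152R.

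The beta ring carries the cutting sites and was more even between libraries. PSMB5, the subunit with the chymotrypsin-like site that bortezomib blocks, was at 201, 192 and 195 CPM in vehicle controls and 176, 166 and 169 CPM with VNLG-152R. These groups did not overlap, and the log2 fold change of -0.20 (standard error 0.08) had an edgeR adjusted p of 0.145. PSMB6, with the caspase-like site, was at 179, 193 and 207 CPM and then at 184, 204 and 174 CPM, a log2 fold change of -0.04 (standard error 0.09). PSMB7, with the trypsin-like site, was at 227, 258 and 256 CPM and then at 236, 269 and 240 CPM, a log2 fold change of 0.01 (standard error 0.09). For PSMB6 and PSMB7 the groups overlapped, and the intervals ran from -0.24 to 0.16 and from -0.19 to 0.20.

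PSMB4, a beta subunit with no cutting site, had the smallest p of its ring. It was at 284, 248 and 257 CPM in vehicle controls and at 221, 232 and 222 CPM with VNLG-152R, without overlap (log2 fold change -0.22, standard error 0.08, edgeR adjusted p = 0.141). PSMB2, also without a cutting site, did not overlap between groups either (log2 fold change -0.21, adjusted p = 0.176 from edgeR), whereas PSMB1 did (-0.09). Summed over the beta ring, vehicle controls were at 1402, 1381 and 1400 CPM and VNLG-152R libraries at 1255, 1329 and 1260 CPM. All 3 treated sums were below all 3 control sums, at a mean ratio of 0.919.

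Among the inducible cutting subunits, only PSMB10, which takes the place of PSMB7, was tested. It was at 4.16, 4.09 and 4.68 CPM in vehicle controls and at 4.95, 5.36 and 4.21 CPM with VNLG-152R (log2 fold change 0.17, standard error 0.13, edgeR adjusted p = 0.485). PSMB8 and PSMB9, which take the places of PSMB5 and PSMB6, had too few counts for a test, as given above.

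The base holds the ATPase ring, PSMC1 to PSMC6, the scaffolds PSMD1 and PSMD2, and the ubiquitin receptor PSMD4. All 9 had log2 fold changes below 0, with a median of -0.09 and 0 called. PSMC5 had the smallest p, at 264, 268 and 278 CPM in vehicle controls and 242, 224 and 228 CPM with VNLG-152R. The groups did not overlap (log2 fold change -0.22, standard error 0.08, edgeR adjusted p = 0.119), and an antisense gene covers part of this transcript, as given above. PSMC6 did not overlap either (-0.23, adjusted p = 0.222 from edgeR), and VNLG-152R replicate 1 was its lowest library at 90.9 CPM against 112 and 113 CPM in the other treated libraries. PSMD2, the most abundant member by CPM, was at 1241, 1385 and 1337 CPM in vehicle controls and 1365, 1199 and 1249 CPM with VNLG-152R, with overlap (log2 fold change -0.06, interval -0.25 to 0.14). PSMC4 went from 4.26 ± 1.33 to 3.41 ± 0.101 CPM, and vehicle control replicates 1 and 3 were its lowest and highest libraries, at 2.96 and 5.62 CPM. Base sums of 2887, 2985 and 2969 CPM in vehicle controls compared with 2851, 2754 and 2728 CPM with VNLG-152R, a mean ratio of 0.943 without overlap.

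The lid is built on winged-helix subunits and holds PSMD14, the enzyme that takes ubiquitin off the substrate. All 8 lid genes had log2 fold changes below 0, with a median of -0.09 and 0 called. PSMD13, a structural subunit, had the smallest p. It was at 233, 217 and 215 CPM in vehicle controls and at 178, 202 and 199 CPM with VNLG-152R, without overlap (log2 fold change -0.20, standard error 0.08, edgeR adjusted p = 0.186). PSMD8 (-0.18), PSMD6 (-0.17) and PSMD7 (-0.10) did not overlap either, with edgeR adjusted p of 0.21, 0.22 and 0.473.

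PSMD14 was at 250, 228 and 214 CPM in vehicle controls and at 192, 241 and 227 CPM with VNLG-152R. The low value of VNLG-152R replicate 1 set it apart from the other 2 treated libraries, which lay among the controls (log2 fold change -0.07, interval -0.29 to 0.15). PSMD11, a lid scaffold known as a limiting factor of assembly in stem cells, was at 207, 201 and 205 CPM and then at 201, 193 and 215 CPM, a log2 fold change of -0.01 with an interval from -0.18 to 0.16. PSMD3 and PSMD12 overlapped as well, with -0.03 and -0.08. The lid sums of 1544, 1519 and 1523 CPM in vehicle controls lay above the sums of 1398, 1413 and 1476 CPM with VNLG-152R, a mean ratio of 0.935.

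**Figure D3:**
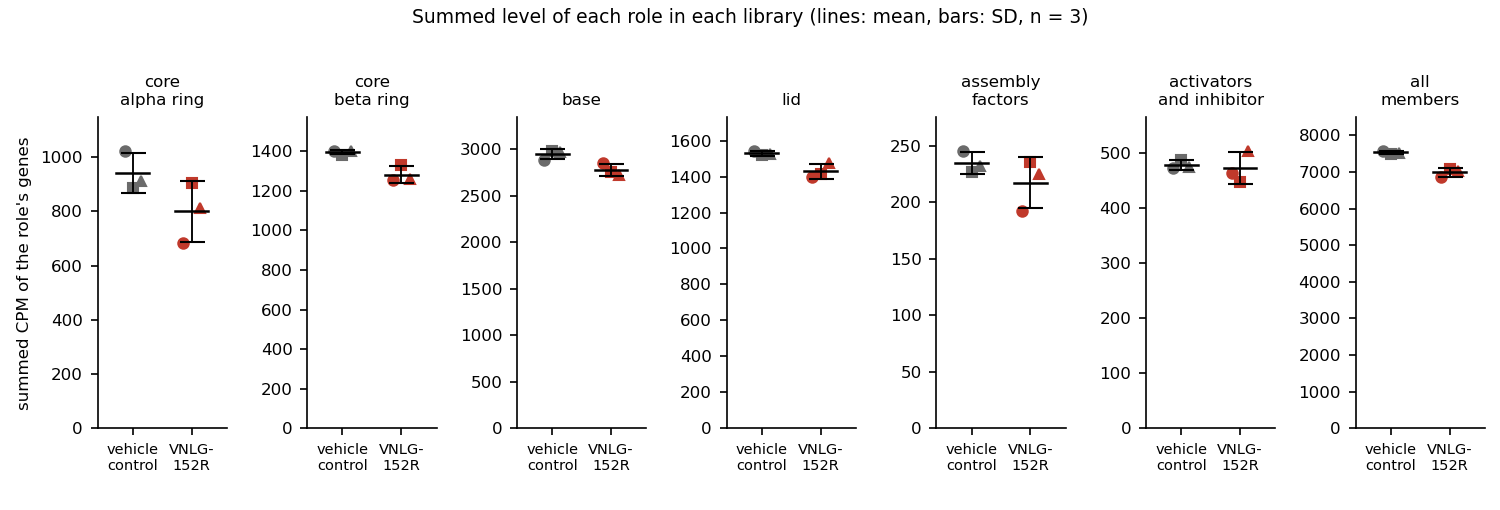
Summed CPM of the genes of each role (y axis from 0) in the vehicle control (grey) and VNLG-152R (red) libraries; circles, squares and triangles are replicates 1, 2 and 3, lines the mean and bars the SD (n = 3). The beta ring, base and lid sums and the sum of all members did not overlap between the groups, whereas those of the alpha ring, the assembly factors and the activators and inhibitor did.

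The assembly factors put the core and the base together and leave afterwards. All 7 had log2 fold changes below 0, with a median of -0.09 and 0 called. PSMG3, a chaperone of the alpha ring, had the smallest p, at 30.6, 24.6 and 27.0 CPM in vehicle controls and 20.2, 24.5 and 21.7 CPM with VNLG-152R. These groups did not overlap, though vehicle control replicate 2, at 24.56 CPM, and VNLG-152R replicate 2, at 24.51 CPM, lay close together (log2 fold change -0.31, standard error 0.10, edgeR adjusted p = 0.108). Its partner PSMG4 had -0.10, and PSMG1 and PSMG2, the other chaperone pair of the alpha ring, -0.08 and -0.09. The base chaperones PSMD5, PSMD9 and PSMD10 had -0.10, -0.05 and -0.07. Without VNLG-152R replicate 1 the median of the assembly factors was -0.017, and PSMG1 (0.023), PSMD9 (0.012) and PSMD10 (0.083) were above 0. VNLG-152R replicate 1 gave the lowest assembly sum, 192 CPM, while the other treated libraries, at 236 and 225 CPM, lay among or close to the vehicle controls at 246, 227 and 232 CPM.

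Between the roles, the ratios of summed CPM overlapped. The lid over the core was 0.636, 0.67 and 0.658 in vehicle controls and 0.722, 0.632 and 0.712 with VNLG-152R. The base over the core was 1.19, 1.32 and 1.28 and then 1.47, 1.23 and 1.32, and the assembly factors over the core 0.101, 0.1 and 0.1 and then 0.0991, 0.106 and 0.108. In both of the first ratios, VNLG-152R replicate 1 was the highest and VNLG-152R replicate 2 lay within or below the controls, so no difference of balance between lid, base, core and assembly factors exceeded the spread between libraries. Over all 48 members the sum was 7579, 7490 and 7518 CPM in vehicle controls and 6847, 7091 and 7012 CPM with VNLG-152R. Each treated sum was below each control sum, at a mean ratio of 0.928. CPM gives a share of the RNA, so fewer copies of these transcripts and more RNA of other genes cannot be told apart.

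**Figure D4:**
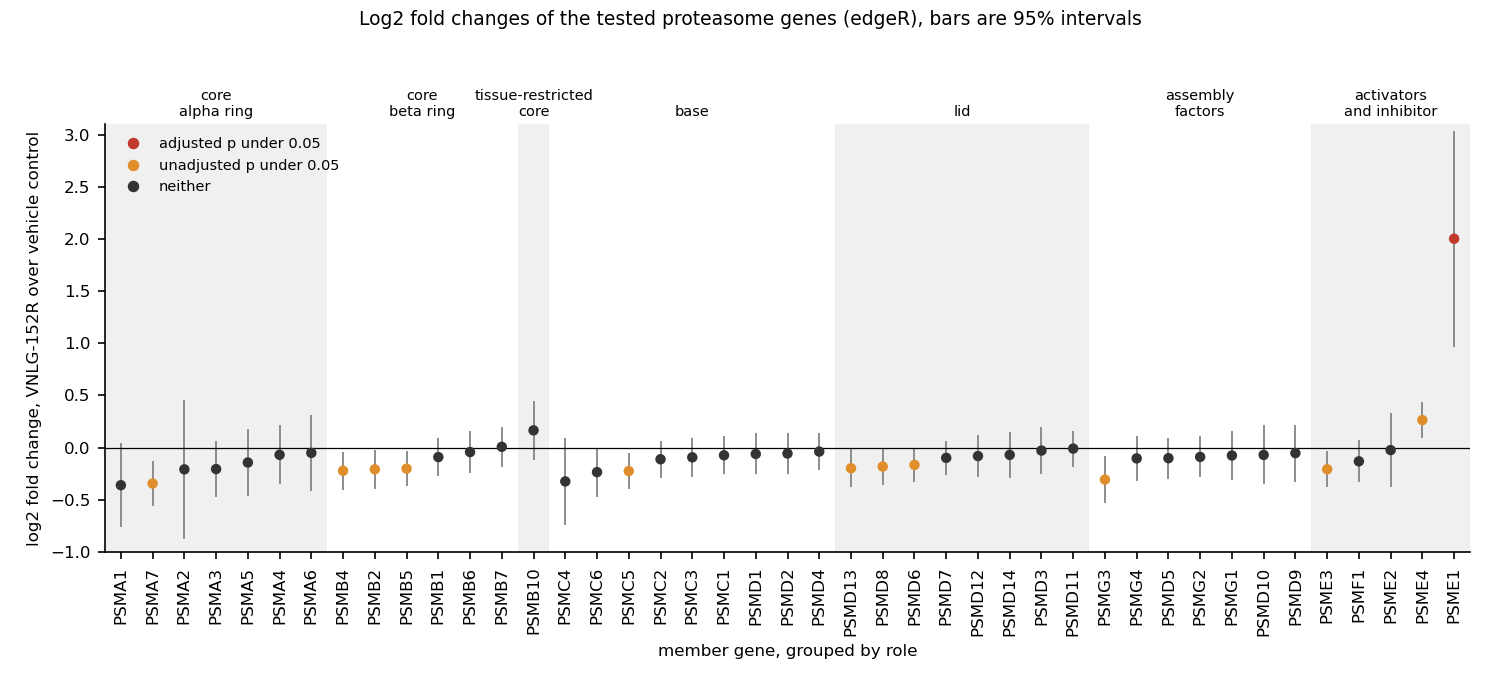
Log2 fold change of VNLG-152R over vehicle control (y axis) for the 43 tested members by role (x axis), with 95% intervals from edgeR; red marks an adjusted p under 0.05 and orange an unadjusted p under 0.05. PSME1 stands alone at 2.0, PSME4 is at 0.26, and most other members lie between -0.36 and 0.

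The activators, which open the core without ATP, held both of the members with an unadjusted p under 0.05 in the upward direction. PSME1, the alpha subunit of the activator that interferon induces, lies on chromosome 14 from 24136158 to 24138967 (GRCh38). It had 318, 334 and 446 counts in vehicle controls and 337, 2743 and 2358 counts with VNLG-152R. In CPM these were 5.23, 5.55 and 6.55 against 4.98, 35.9 and 28.5. VNLG-152R replicate 1 was below every vehicle control, and the other 2 treated libraries were far above. The log2 fold change was 2.0 (standard error 0.48, edgeR adjusted p = 0.0334). DESeq2 (adjusted p = 0.0671) and limma-voom (adjusted p = 0.144) did not call it, and edgeR lost the call without any one library other than VNLG-152R replicate 1. Without VNLG-152R replicate 1 the log2 fold change was 2.48 (adjusted p = 1.06e-07).

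The region of PSME1 was thinly counted. Of 13 coding genes within 50 kb, 11 had a mean under 100 counts. RNF31, a subunit of a ubiquitin ligase, IRF9, an interferon response factor, and the importin IPO4 had 0 or 1 counts in each library. DCAF11, an adaptor of a ubiquitin ligase, had 66, 57 and 83 counts in vehicle controls and 111, 306 and 122 with VNLG-152R, highest in VNLG-152R replicate 2 as PSME1 was. PCK2 (22, 44 and 49 counts, then 61, 46 and 37) and EMC9 (8, 33 and 81 counts, then 76, 80 and 167) were not highest in that library. The part of the thin counting of the region in the difference of PSME1 was not tested.

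PSME2, the partner of PSME1 in the same ring, was at 22.4, 19.2 and 15.7 CPM in vehicle controls and 16.8, 15.4 and 24.2 CPM with VNLG-152R. It did not follow PSME1, since VNLG-152R replicate 2, the highest library for PSME1, was the lowest for PSME2 (log2 fold change -0.02, standard error 0.16, interval -0.38 to 0.33). In PSME2, 12.0% of the transcript lies under an antisense gene.

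**Figure D5:**
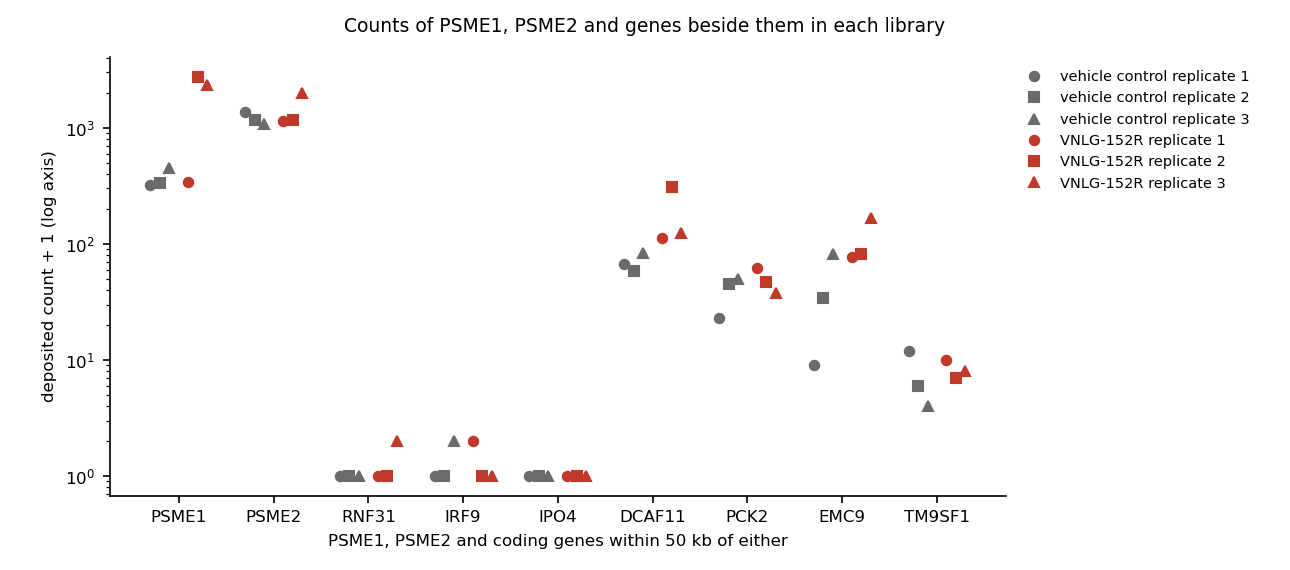
Deposited counts plus 1 (y axis, log) in each library for PSME1, PSME2 and coding genes near either (x axis), grey for vehicle control and red for VNLG-152R. PSME1 lies above the vehicle controls only in VNLG-152R replicates 2 and 3 (squares and triangles), and RNF31, IRF9 and IPO4 are at 0 or 1 counts.

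PSME4, the large activator known for acetylated histones and DNA repair, lies on chromosome 2 from 53864067 to 53970840 (GRCh38). It was at 86.3, 90.8 and 81.5 CPM in vehicle controls and at 103, 101 and 107 CPM with VNLG-152R. Every treated library was above every control, the only member for which this held. The log2 fold change was 0.26 (standard error 0.08, edgeR adjusted p = 0.0789). DESeq2 called it higher (adjusted p = 0.0394), and after correction for transcript length, where this transcript of 7099 bases is the longest of the members, it was 0.15 (edgeR adjusted p = 0.25). PSME3, the nuclear activator, was at 183, 183 and 181 CPM and then at 159, 148 and 167 CPM, without overlap and in the other direction (log2 fold change -0.21, standard error 0.08, edgeR adjusted p = 0.151). PSMF1, the inhibitor of the core, was at 176, 190 and 191 CPM and then at 181, 149 and 178 CPM, with overlap (log2 fold change -0.13, interval -0.33 to 0.07).

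Genes that work with the proteasome gave some values past the unadjusted threshold and none past the adjusted one. Of all tested genes, edgeR called 3.76% higher and 1.43% lower, and 12.8% and 9.76% were so at an unadjusted p under 0.05. In lists this short, 0 called is not read as a result about the lists. Of 19 proteasome partners, 0 were called in either direction by edgeR (0 higher and 1 lower at an unadjusted p under 0.05), and the median log2 fold change was -0.04. ADRM1, a ubiquitin receptor of the base, went from 285 ± 13.3 to 226 ± 35.5 CPM (log2 fold change -0.33, standard error 0.11, edgeR adjusted p = 0.0949), and SEM1, a small lid subunit, and POMP, a core assembly factor, had -0.03 and -0.12. Of 10 genes listed around NFE2L1, with NFE2L2, SYVN1 and SEL1L among them, 0 were called by edgeR (1 higher and 0 lower at an unadjusted p under 0.05). NFE2L1 itself went from 638 ± 65.5 to 667 ± 89.1 CPM (0.06, interval -0.18 to 0.31). SYVN1, the ubiquitin ligase of the endoplasmic reticulum that the study follows, went from 75.4 ± 7.22 to 84.3 ± 14.5 CPM (log2 fold change 0.16, standard error 0.12, edgeR adjusted p = 0.454).

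Of 12 genes of ubiquitin and its activation, 0 were called by edgeR (0 higher and 3 lower at an unadjusted p under 0.05). Of all tested genes, 12.8% were higher and 9.76% lower at that unadjusted threshold. UBB, a polyubiquitin gene, went from 910 ± 42.4 to 763 ± 68.8 CPM without overlap (log2 fold change -0.25, edgeR adjusted p = 0.132). Of 15 antigen processing genes, 12 were tested and 0 called by edgeR (2 higher and 0 lower at an unadjusted p under 0.05). IRF1, which drives inducible proteasome genes, went from 57.9 ± 0.843 to 66.2 ± 2.66 CPM without overlap (0.19, edgeR adjusted p = 0.165). TAP1 had 0 counts in 5 libraries and 1 count in VNLG-152R replicate 2.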

How the data were processed

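RNA of 6 MDA-MB-231 samples was sequenced as strand-specific polyA libraries. For each sample the authors deposited a table of raw counts by Ensembl gene. Per the labels, HISAT, HTSeq and DESeq were used with GRCh38. Not given in the sources used here were their versions and roles, the annotation release and the strand setting. Pairs in no gene, ambiguous or not aligned uniquely were left out of library sizes (2.63% to 5.05%, 4.81% to 5.16% and 7.81% to 8.12% in the libraries).

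Of 61552 identifiers, 61399 matched the name table and 42047 have a symbol. Coordinates, overlaps and lengths (median of principal transcripts) come from GENCODE 29. Counts were tested by quasi-likelihood in edgeR 4.0.16 under R 4.3.3 (TMM, filterByExpr, no covariate, Benjamini-Hochberg adjustment over all tested genes, threshold 0.05). The residual degrees of freedom were 4 and the biological coefficient of variation was 0.105. No exact permutation test was run, since 3 against 3 libraries cannot reach a p below 0.10. Tested on simulated counts with 200 changed genes, the recovery by edgeR was 74.6% at 1.5-fold (67 genes), 95.5% at 2-fold (67 genes) and 100% at 4-fold (66 genes), with 13 false among 193 calls over 16848 genes. The changed genes were above 1 CPM, and counts were drawn independently for each gene, without trends shared across a library. These figures may therefore be better than those that hold for the libraries here. Most member differences here are under 1.5-fold.

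The members, lists and tests were chosen with earlier results of these data known. Values per library were given for members called, the member of smallest p in each role, the cutting subunits, PSMD11, PSMD14, the activators and the inhibitor. Some genes outside the members are not reported here. PSMA5, PSMC6 and PSMD2 were added after their values were seen, as was the limit to members of at least 10 CPM. Alternatives were DESeq2 1.42.0, its RLE size factors, scaling by library size alone, all genes unfiltered, genes averaging 1 CPM or more, voom of limma 3.58.1, replicate number as a block, a correction for transcript length (lowess, span 0.3), thinning to the shallowest library and leaving out each library (seed 1).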

Additional observations from a re-analysis of the deposited data

Results flagged for a closer look

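Read pairs that fell in no annotated gene are outside the comparisons above. In vehicle controls they made up 2.63% to 3.17% of the pairs, and after VNLG-152R 3.36% to 5.05%, so that even the lowest treated library, at 3.36%, lay above every control. Their source was not tested.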

How the results depend on the processing

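The main counts were 642 genes higher and 245 lower, 1 member higher and 0 lower. With no expression filter they were 1056, 483, 1 and 1; DESeq2 gave 542 lower and 1 member lower; limma-voom gave 0 members higher. Deviations of same-numbered samples from their group means had correlations of -0.19, -0.17 and -0.11. Trends of whole libraries enter these values, so they cannot show whether samples of the same number were handled together. With a replicate block 318 genes were higher and 88 lower. Leaving out each library gave 220 to 601 genes higher, 44 to 347 lower and 0 to 1 members higher. The only call among members, PSME1, held without VNLG-152R replicate 1 and was lost without each of the other 5 libraries. Without a library, the median log2 fold change was -0.15 to -0.065 for all members (lowest without VNLG-152R replicate 2), -0.22 to -0.053 for the core (nearest 0 without VNLG-152R replicate 1, when base and lid were lower, and -0.11 and -0.13 without vehicle control replicates 1 and 3), -0.13 to -0.07 for the base, -0.13 to -0.09 for the lid and -0.17 to -0.017 for the assembly factors (-0.17 without VNLG-152R replicate 2, -0.017 without VNLG-152R replicate 1). With the length correction the core was at -0.15 and the assembly factors at -0.038. Members near 0 changed sign. With the length correction PSMB6 was at 0.016 and PSME2 at 0.043. Over the fits without 1 library, PSMB6 ran from -0.11 to 0.012 (above 0 without vehicle control replicate 3 or VNLG-152R replicate 3), PSMB7 from -0.051 to 0.046 (below 0 without vehicle control replicate 1 or VNLG-152R replicate 2), PSMD11 from -0.051 to 0.027 and PSME2 from -0.25 to 0.11 (both above 0 without vehicle control replicate 1, VNLG-152R replicate 1 or VNLG-152R replicate 2), and PSMD14 from -0.14 to 0.024 (above 0 without VNLG-152R replicate 1). The cause was not tested. Of 42 members fitted in all 16 settings, 25 were below 0 in each and 3, PSMB10, PSME1 and PSME4, above 0 in each. With members of at least 10 CPM, 1 was higher, 0 lower and the median -0.09. Where an interval included 0, a difference within it was not told apart from 0 with 3 libraries a group.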
